A study of Mus musculus with 2 samples.

Results

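Cnfn and Ly6c1 high cells are the cells of mouse gastric dysplastic organoids with the most Cnfn and Ly6c1 RNA. They were chosen by those measured values: in each library the cells were ranked by their summed Cnfn and Ly6c1 counts per 10000 counts of the cell, and the top 25% were taken. This gave 213 of 854 pyrvinium-treated cells and 400 of 1602 DMSO-treated cells, 613 of 2456 cells in all. They are called members below, and were set against the 25% of cells with the lowest score in the same library, called low-score cells. The organoids are the Meta4 line, a dysplastic line from the stomach corpus of mice that carry Mist1-CreERT2, a tamoxifen-inducible Cre driven by a chief cell promoter, together with a Cre-activated (LSL) transgene, and both libraries come from this 1 line. One set of organoids was exposed to pyrvinium, an anthelmintic dye, for 1 day, and the other set to DMSO, the solvent. Each treatment is 1 PIPseq library (droplet single-cell RNA-seq read at the 3' end), so no difference has a replicate check and none has a p-value.

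Cnfn encodes cornifelin, a protein of the cornified envelope that covers squamous epithelia. Ly6c1 encodes a small GPI-anchored surface protein of the Ly6 and uPAR family, best known from mouse monocytes and endothelium. In mouse it sits in a cluster of related genes on chromosome 15 that also holds Ly6a, the stem cell antigen widely read as a marker of fetal-like, regenerating gut epithelium. Ptgs2, the inducible cyclooxygenase that starts prostaglandin synthesis, and Areg, an EGF receptor ligand, are both known from injured epithelium and were named with Cnfn and Ly6c1 as markers of these cells.

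The pyrvinium cells were deeper, with a median of 31517 counts per cell against 18592.5 in DMSO cells, and no cell barcode occurred in both libraries. In pyrvinium the median was 35733 counts in members and 24923 in the low-score cells; in DMSO it was 17678.5 in members and 16120.5 in the low-score cells. The mitochondrial share of the summed counts was lower in members, at 1.23% against 2.04% in the low-score cells with pyrvinium and 2.16% against 2.98% with DMSO. The part that depth and mitochondrial share have in the differences below was not tested. Levels are summed counts of a group per 1000000 counts of that group (CPM). A gene was called higher or lower when the ratio of 2 groups was at least 1.5-fold and its whole 95% interval lay on that side of 1, among genes with at least 20 counts in both groups together. Intervals of levels and ratios are exact, cover counting error only, and treat every count as an independent molecule.

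The score rested on few counts in many members. It was 0 in 456 pyrvinium cells (53.4%) and 1015 DMSO cells (63.4%), which include all low-score cells. The lowest-scoring member had 0.554 counts per 10000 in pyrvinium, where the highest-scoring cell outside had 0.552, and in DMSO the values were 0.547 inside and 0.546 outside. A single Cnfn or Ly6c1 count put 28 of 213 pyrvinium members and 120 of 400 DMSO members into the group, while 110 pyrvinium members and 160 DMSO members had at least 5 such counts. Members held 96.8% of all Cnfn counts and 84.9% of all Ly6c1 counts with pyrvinium, and 98.2% and 93.6% with DMSO. Cnfn was the more concentrated of the pair: 10 cells held 73.1% of it with pyrvinium and 43.0% with DMSO, whereas 10 cells held 24.8% of Ly6c1 with pyrvinium and 30.2% with DMSO. Summed over members, Cnfn stood at 107 CPM with pyrvinium and 309 CPM with DMSO, and Ly6c1 at 143 CPM with pyrvinium and 225 CPM with DMSO. Barcodes with 100 to 500 counts, a measure of free RNA, carried 22.8 CPM of Cnfn with pyrvinium and 86.5 CPM with DMSO, close to the 31.6 and 84.8 CPM of all cells in the same libraries. Their Ly6c1 stood at 54.6 CPM with pyrvinium and 75.9 CPM with DMSO, against 47.8 and 64.9 CPM in all cells. A member with 1 count therefore cannot be told apart from a cell that captured free RNA.

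**Figure D1:**
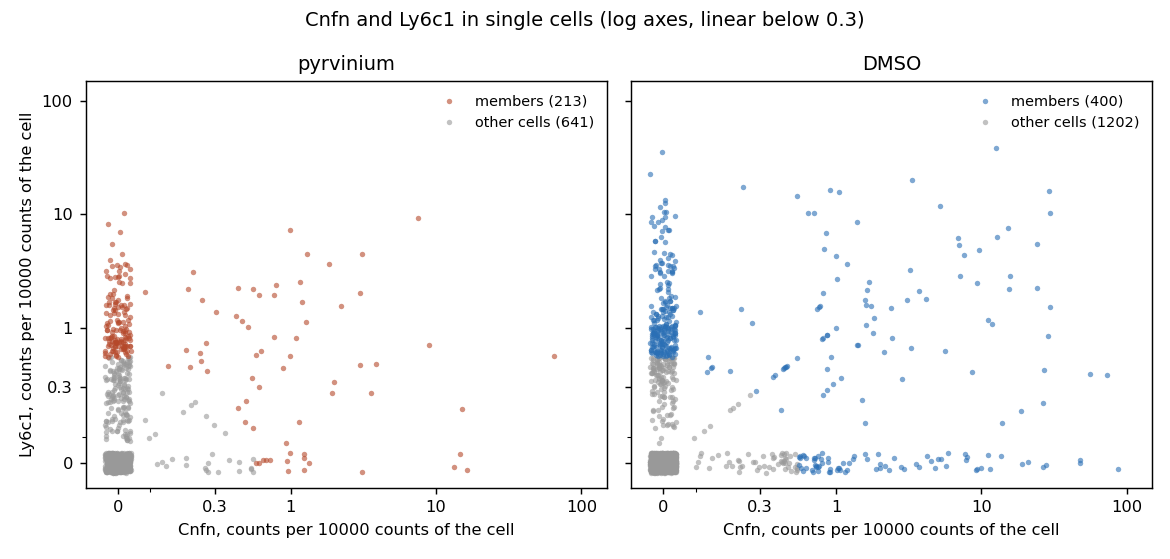
Cnfn (horizontal axis) against Ly6c1 (vertical axis) in every cell, in counts per 10000 counts of the cell on log axes that are linear below 0.3, with a small random offset so that cells with equal values can be seen. Coloured points are the 213 pyrvinium members (left) and the 400 DMSO members (right), grey points the other cells; most members lie along one of the axes, and 52 pyrvinium and 95 DMSO members hold both genes.

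Most members were chosen by 1 of the genes alone. Both genes were detected in 52 members with pyrvinium and 95 with DMSO, Cnfn only in 16 and 76, and Ly6c1 only in 145 and 229. Among all cells, Ly6c1 was detected in 63 of 98 Cnfn-positive pyrvinium cells (64.3%, exact binomial interval 54.0 to 73.7%), against 39.7% of the Cnfn-negative cells (36.2 to 43.3%). With DMSO it was detected in 102 of 231 Cnfn-positive cells (44.2%, 37.7 to 50.8%), against 26.0% of the Cnfn-negative cells (23.7 to 28.4%). When each cell was thinned to 5000 counts the DMSO shares were 27.1% (19.0 to 36.6%) and 10.8% (9.24 to 12.5%). With pyrvinium they were 17.2% (5.85 to 35.8%) and 13.2%, which does not separate them, from 29 Cnfn-positive cells.

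The level of either gene was also read in counts of the same cells that had no part in the choice. The counts of every cell were split at random into 2 sets of about equal size. Members and low-score cells were chosen anew on 1 set, and the genes were read in the other. Both sets come from the same cells, so a cell rich in a gene is rich in both, and the values are a description. There Cnfn was 105 CPM in pyrvinium members against 2.21 CPM in the low-score cells (47.5-fold, 23.9 to 111), and 263 CPM in DMSO members against 3.35 CPM (78.4-fold, 46.6 to 144). Ly6c1 was 132 CPM in pyrvinium members against 8.27 CPM in the low-score cells (15.9-fold, 11.03 to 23.76), and 187 CPM in DMSO members against 13.2 CPM (14.2-fold, 10.8 to 19.0). These are ratios of summed counts, to which the few cells rich in Cnfn contribute most of that gene.

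Across all genes, the contrast with the low-score cells is the one that the choice of cells was made on, and its counts are a description. With pyrvinium 535 of 12081 genes were higher in members (4.43%) and 1296 lower (10.7%). With DMSO 606 of 12367 genes were higher (4.9%) and 708 lower (5.72%). Among cells of the same range of counts 293 were higher and 526 lower with pyrvinium. The split between higher and lower depended on the scaling. On the CPM scale the median log2 ratio of all genes was -0.11 with pyrvinium and -0.09 with DMSO, and 29.2% and 46.1% of the calls were higher. With median-of-ratios scaling the medians were 0.00 and 0.02, and the higher share was 46.4% (776 higher, 895 lower) with pyrvinium and 68.0% (876 higher, 413 lower) with DMSO. Of the 11735 genes measured in both libraries, 185 were higher in members of both, which is 36.9% of the pyrvinium and 32.7% of the DMSO calls. Another 233 were lower in both (18.3% of the pyrvinium and 35.7% of the DMSO calls), and 22 were called in opposite directions.

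Genes of the Ly6 cluster other than Ly6c1 were also high in members. Of the 29 genes annotated from Psca to Gpihbp1 on chromosome 15, 14 other than Ly6c1 had enough counts in each library, and 9 of these were higher and 0 lower in members of both libraries. Ly6a, the most abundant of the 9, was at 3175 CPM in pyrvinium members against 1289 CPM in the low-score cells (log2 1.30, 1.27 to 1.33), and at 3011 CPM in DMSO members against 1139 CPM (log2 1.40, 1.37 to 1.44). It was detected in 211 of 213 and 399 of 400 members, so its rise was one of level and not of presence. Psca, a prostate stem cell antigen that gastric surface cells also carry, was at 203 CPM in pyrvinium members against 99.9 CPM, and at 254 CPM in DMSO members against 112 CPM. Ly6i and Ly6f, GPI-anchored relatives of Ly6c1, were raised by log2 1.08 and 1.20 with pyrvinium and by 1.28 and 1.28 with DMSO. Ly6c2, a close relative of Ly6c1 and a monocyte marker, had 6.64 CPM in pyrvinium members against 0.565 CPM and 8.61 CPM in DMSO members against 0.619 CPM. Not every gene of the cluster followed: Ly6e was at 2680 CPM in members against 2853 CPM in the low-score cells with pyrvinium and 2168 against 2233 CPM with DMSO, and Ly6d, a keratinocyte antigen, at 1880 against 2011 CPM and 2290 against 1853 CPM. Ly6c1, Ly6c2, Ly6a, Ly6i, Ly6f and Ly6m are near-identical in parts, as are Gml and Gml2, and how reads that fit several of them were counted is not given in the sources used here, so a share of their signal may be common. The Ly6 neighbourhood was taken up after its values had been seen.

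The windows of 250 bases before the annotated start show how alike the Ly6f and Ly6c2 promoters are to that of Ly6c1, beside that of Cnfn, the other gene of the score. Ly6a, Ly6i, Ly6m and Psca had no window in the source used, so they were not compared. They are from RefSeq on GRCm38.p6, while the counts were made on GRCm39, and are printed on the gene's own strand with TATAAA in capitals where it occurs; Ly6c1 and Ly6c2 have 2 annotated starts each, and the first was used. The Ly6c1 window is chr15:75048838-75049087 (minus strand), Ly6f chr15:75268171-75268420 (plus strand), Ly6c2 chr15:75111972-75112221 (minus strand) and Cnfn chr7:25369725-25369974 (minus strand).
Ly6c1: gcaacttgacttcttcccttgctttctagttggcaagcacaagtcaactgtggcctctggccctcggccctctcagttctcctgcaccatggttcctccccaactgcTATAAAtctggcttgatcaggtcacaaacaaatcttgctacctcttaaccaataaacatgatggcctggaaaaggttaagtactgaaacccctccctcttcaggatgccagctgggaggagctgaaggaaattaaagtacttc
Ly6f: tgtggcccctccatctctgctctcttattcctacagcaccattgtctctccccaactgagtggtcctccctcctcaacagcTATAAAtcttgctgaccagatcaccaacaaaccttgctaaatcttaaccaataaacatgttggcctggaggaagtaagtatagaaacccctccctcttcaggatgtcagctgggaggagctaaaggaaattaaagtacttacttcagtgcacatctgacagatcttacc
Ly6c2: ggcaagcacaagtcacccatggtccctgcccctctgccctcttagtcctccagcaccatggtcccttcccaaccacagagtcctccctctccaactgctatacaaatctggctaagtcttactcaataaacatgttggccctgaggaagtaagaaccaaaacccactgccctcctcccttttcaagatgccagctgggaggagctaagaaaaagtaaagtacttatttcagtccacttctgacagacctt
Cnfn: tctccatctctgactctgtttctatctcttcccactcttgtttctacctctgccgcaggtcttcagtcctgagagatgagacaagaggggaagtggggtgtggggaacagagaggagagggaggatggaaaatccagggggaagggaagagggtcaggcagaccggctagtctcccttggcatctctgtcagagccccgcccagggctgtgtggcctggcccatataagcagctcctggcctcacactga
In a pairwise alignment 65.6% of positions were identical between Ly6c1 and Ly6f and 59.9% between Ly6c1 and Ly6c2, against 43.0% between Ly6c1 and Cnfn, 43.4% between Ly6c1 and Ptgs2 and 48.9% between Ly6c1 and Areg. TATAAA lay 143 bases before the Ly6c1 start and 169 bases before the Ly6f start, and it is found on either strand in 12.4% of 32851 promoter windows of this length. TGANTCA (an AP-1 motif, in 6.75% of windows), TGACGTCA (a cAMP response element, 1.55%), TTCNNNGAA (a STAT motif, 7.02%) and GGAATG (a TEAD motif, 12.6%) occurred in none of these 4 windows. Areg held TATAAA 31 bases and TGACGTCA 61 bases before its start, and the Ptgs2 window held none of the 5 motifs.

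**Figure D2:**
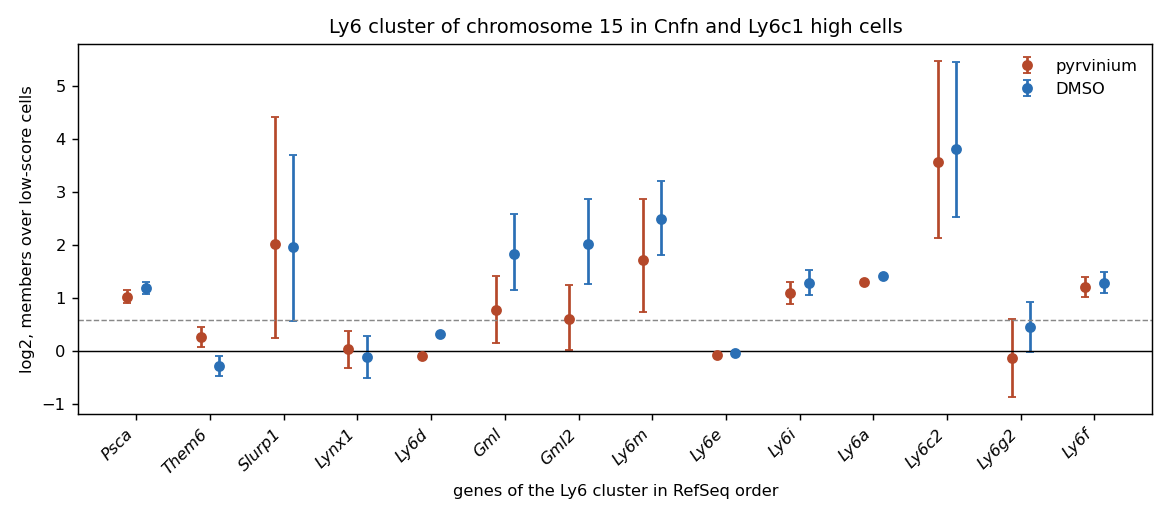
Log2 ratio of summed CPM, members over the low-score cells (vertical axis), for the 14 measured genes of the Ly6 cluster other than Ly6c1, in their order along chromosome 15, with pyrvinium left and DMSO right at each gene; bars are 95% counting intervals and the dashed line marks 1.5-fold. In both libraries 9 genes including Ly6a and Psca lie above the line, while Ly6d and Ly6e lie near 0.

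Members carried more RNA of fetal-like and regenerative epithelial genes. Of 24 measured genes of that list 11 were higher and 1 lower in pyrvinium members (median log2 0.53), and 12 were higher and 2 lower in DMSO members (median 0.61), beside a median near -0.1 over all genes. Genes higher in both include Ly6a, S100a6, Msln (mesothelin), Il33 (an alarmin), Il1rn (the interleukin 1 receptor antagonist), Emp1 and Ccn2 (a Yap target). S100a6, a calcium-binding protein, was at 9102 CPM in pyrvinium members against 5168 CPM in the low-score cells, and at 7408 CPM in DMSO members against 4715 CPM. Clu, the clusterin gene that marks reviving intestinal stem cells and is also on this list, went the other way, at 1306 CPM in pyrvinium members against 2256 CPM and at 2168 CPM in DMSO members against 4395 CPM. The pyrvinium ratio of Clu was log2 -0.79, but -0.31 among cells limited to 1 common range of counts and -0.50 with members chosen by Cnfn alone, both below the limit for a call; the DMSO ratio of -1.02 kept its call size under the alternatives tried.

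Genes of differentiated surface epithelium were raised in part. Of this list 5 of 24 genes were higher and 3 lower with pyrvinium, and 9 of 25 were higher and 2 lower with DMSO. Krt19, a keratin of simple epithelium, was at 1103 CPM in pyrvinium members against 725 CPM in the low-score cells (log2 0.61), and at 3350 CPM in DMSO members against 1518 CPM (log2 1.14). The pyrvinium call was lost when members were scored and summed on separate counts (log2 0.36). With members chosen by Ly6c1 alone the call was lost in both libraries (0.03 with pyrvinium, 0.56 with DMSO). The pyrvinium ratio also fell just below the limit against all cells with a score of 0 (0.55) and without S and G2M cells (0.57). Without the 5% highest doublet scores it was 0.58, again just below. Anxa2, a membrane-binding annexin, was at 891 CPM against 399 CPM with pyrvinium and 1285 CPM against 544 CPM with DMSO. S100a14, a calcium-binding protein of epithelia, was at 1159 CPM against 555 CPM with pyrvinium and 613 CPM against 240 CPM with DMSO. B4galnt2, which makes the Sda carbohydrate of gut mucus, was at 268 CPM against 109 CPM with pyrvinium and 113 CPM against 42.6 CPM with DMSO. Among genes that were called in both libraries Myl7, the atrial myosin light chain, had large ratios: 27.1 CPM in pyrvinium members against 2.54 CPM (log2 3.42), and 68.8 CPM in DMSO members against 9.78 CPM (log2 2.81), detected in 82 and 134 members. The chemokine Ccl5 had larger ones, but 57.1% of its member counts with pyrvinium and 67.5% with DMSO came from 1 cell each.

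**Figure D3:**
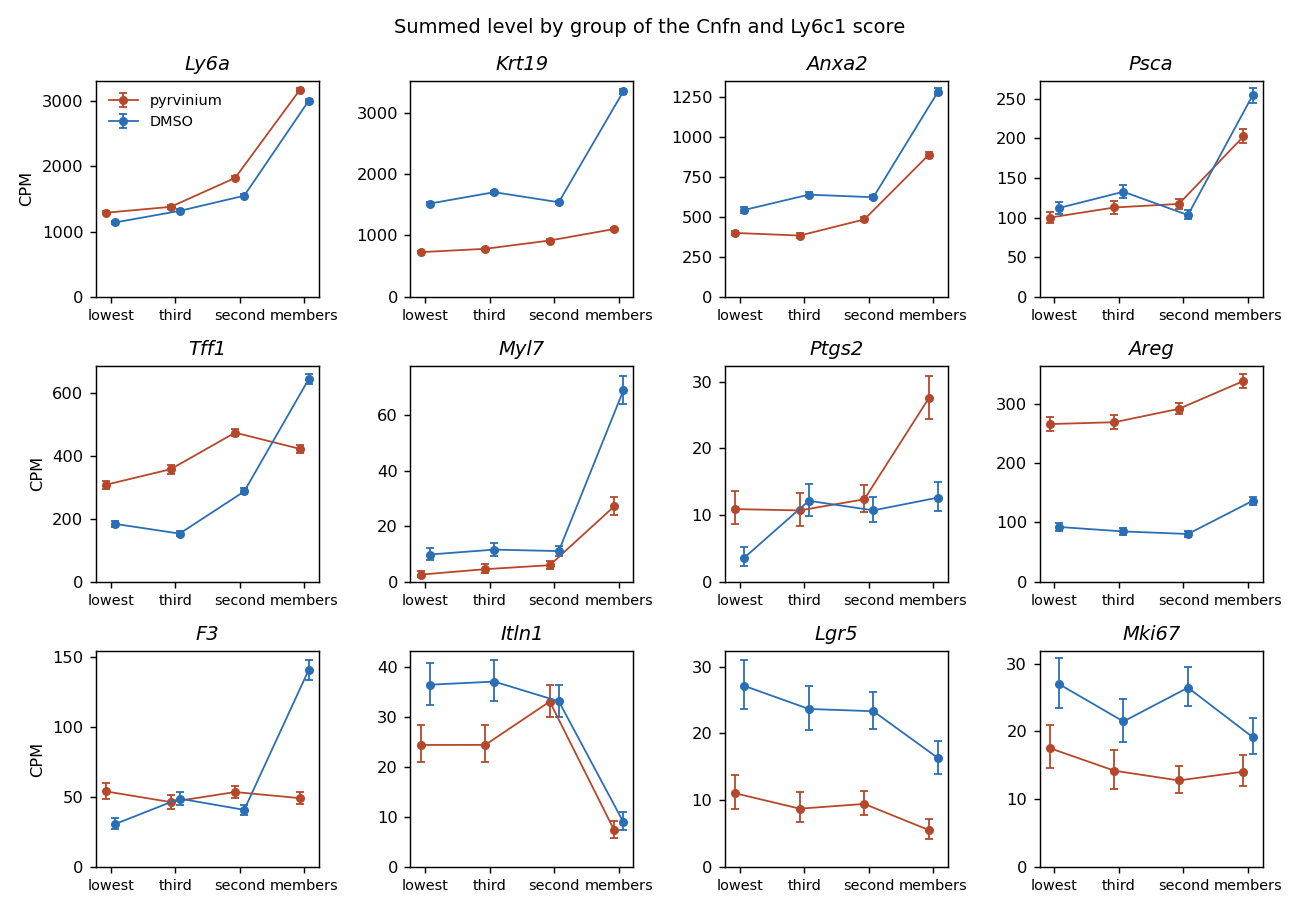
Summed CPM (vertical axes, from 0) of 12 genes in 4 groups of the score of near-equal size, from the low-score cells to the members, in pyrvinium (red) and DMSO (blue) cells; bars are exact Poisson 95% intervals. The 2 lowest groups both have a score of 0 in every cell and are split by file order alone, so steps between them do not follow the score. Ly6a reaches 3175 and 3011 CPM in the members, Psca and Myl7 step up in the members, Itln1 drops there to 7.31 and 8.98 CPM, and F3 steps up to 141 CPM with DMSO.

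Among the prostaglandin genes, Ptgs2 was higher in members, at 27.5 CPM with pyrvinium against 10.9 CPM in the low-score cells (log2 1.34, 0.97 to 1.72) and 12.6 CPM with DMSO against 3.59 CPM (log2 1.81, 1.22 to 2.44). It was detected in 67 pyrvinium and 47 DMSO members, and 1 cell held 24.8% of its member counts with pyrvinium and 25.7% with DMSO. Its ratio differed with the gene used for the choice, in settings that also drew the lowest 25% of cells anew by that gene. With members chosen by Cnfn alone it was log2 2.57 with pyrvinium and 2.38 with DMSO. With members chosen by Ly6c1 alone it was 0.03 and 0.17, below the limit for a call. With each cell thinned to 5000 counts the DMSO ratio was 0.41. Against all cells with a score of 0, in place of the low-score cells, it was 0.76 with DMSO and 1.27 with pyrvinium. Ptgs1, the constitutive cyclooxygenase, was at 13.2 CPM in pyrvinium members against 5.51 CPM and at 10.6 CPM in DMSO members against 2.85 CPM. Hpgd, the enzyme that inactivates prostaglandins, was lower, at 3.89 CPM against 12.7 CPM with pyrvinium and 2.69 CPM against 10.3 CPM with DMSO. Pla2g4a, the phospholipase that releases the substrate of both cyclooxygenases, was at 23.0 against 20.5 CPM with pyrvinium, not called, and was lower with DMSO, at 7.60 against 12.3 CPM. Of the 13 measured genes of this list 2 were higher and 1 lower with pyrvinium (median log2 0.09), and 3 were higher and 2 lower with DMSO (median -0.15).

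Areg, named as a marker of these cells, fell short of a call. It was at 338 CPM in pyrvinium members against 266 CPM in the low-score cells (log2 0.35) and at 136 CPM in DMSO members against 92.2 CPM (log2 0.56), and was called in neither library. The DMSO ratio lay near the limit for a call and passed 1.5-fold under several alternatives, at 0.68 with median-of-ratios scaling, 0.70 with members chosen by Cnfn alone and 0.74 with members of at least 5 counts. It fell under others, to 0.13 with members chosen by Ly6c1 alone, 0.39 as a mean over cells and 0.41 without S and G2M cells. Scored and summed on separate counts it was 0.42. The pyrvinium ratio stayed below the limit in those tried. The median cell had 2.45 Areg counts per 10000 in pyrvinium members against 1.16 in the low-score cells, and 0.814 in DMSO members against 0.449. Between Cnfn only and Ly6c1 only members, compared further on, it was called with DMSO (203 and 100 CPM) and not with pyrvinium (375 and 325 CPM). Ereg, a related ligand, was not called either, at 9.68 against 7.35 CPM with pyrvinium and 5.56 against 3.96 CPM with DMSO. Of the 17 measured genes for EGF family ligands, their receptors and shedding, 1 was higher (Hbegf, an EGF receptor ligand) and 1 lower (Lrig1, a feedback inhibitor of the receptor) with pyrvinium, and 0 were called with DMSO.

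Some other genes of the cornified envelope and of squamous epithelium were also higher in members. With pyrvinium 5 of 14 were higher and 0 lower (median log2 0.38), and with DMSO 6 of 17 were higher and 0 lower (median 0.31). Crct1, a small cornified envelope gene next to the late cornified genes, was at 10.4 CPM in pyrvinium members against 2.12 CPM and 7.69 CPM in DMSO members against 0.99 CPM, with 42.2% of the DMSO member counts in 1 cell. Sprr1a, a cross-linked envelope precursor, was called with DMSO (60.5 CPM in members, 28.5 CPM in the low-score cells) and not with pyrvinium (35.3 and 24.0 CPM), and its DMSO ratio turned below 0 with members chosen by Ly6c1 alone (log2 -0.45). Sprr2a3, the most abundant of the group and part of a set of near-identical copies, was at 5843 against 4487 CPM with pyrvinium and 9129 against 7478 CPM with DMSO, below the 1.5-fold limit.

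Stem cell, Wnt target and mucous neck genes were lower in members. Of 17 measured genes of the stem cell list 0 were higher and 8 lower with pyrvinium (median log2 -0.68), and 0 were higher and 7 lower with DMSO (median -0.45). Lgr5, the R-spondin receptor of gut stem cells, was at 5.504 CPM in pyrvinium members against 11.02 CPM (log2 -1.001) and at 16.3 CPM in DMSO members against 27.1 CPM (log2 -0.73). The DMSO ratio was -0.57 among cells limited to 1 common range of counts and -0.52 with members chosen by Ly6c1 alone, below the limit for a call. Ascl2, a transcription factor of the same cells, was at 9.59 against 18.5 CPM with pyrvinium and 28.7 against 44.1 CPM with DMSO. Sox9, a progenitor transcription factor, was at 8.351 against 15.96 CPM with pyrvinium and 12.5 against 24.8 CPM with DMSO. Of 16 Wnt targets 7 were lower in each library, while 1, Ccnd1 (cyclin D1), was higher with pyrvinium. Lgr5, Ascl2, Sox9 and Znrf3 are on both lists and were counted in each. Of all genes 10.7% were lower with pyrvinium and 5.72% with DMSO. Under median-of-ratios scaling 6 stem cell genes and 6 Wnt targets were lower with pyrvinium, and 5 and 4 with DMSO. With that scaling 1 stem cell gene and 2 Wnt targets were higher with pyrvinium.

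Of the mucous neck and SPEM list (spasmolytic polypeptide-expressing metaplasia, the mucous lineage that appears after loss of acid-secreting cells) 0 of 13 genes were higher and 6 lower with pyrvinium, and 0 of 14 were higher and 5 lower with DMSO. Agr2, a disulfide isomerase needed to fold mucins, was at 77.7 CPM in pyrvinium members against 218 CPM and 375 CPM in DMSO members against 585 CPM. Tff2, the spasmolytic polypeptide itself, was called lower with pyrvinium (10.7 against 50.2 CPM), but 52.4% of the counts of the low-score cells came from 1 cell, and with DMSO it stood at 33.7 against 33.9 CPM. Of the goblet and intestinal genes 6 of 7 were lower with pyrvinium, and 3 of 8 were lower and 1 higher with DMSO. Muc1, a membrane mucin, was at 54.7 against 156 CPM with pyrvinium and 159 against 317 CPM with DMSO. Itln1, an intestinal lectin of goblet and Paneth cells, was at 7.31 against 24.4 CPM with pyrvinium and 8.98 against 36.5 CPM with DMSO. Its pyrvinium ratio of log2 -1.74 was -0.49 among cells limited to 1 common range of counts, below the limit for a call. Ttr, the thyroid hormone carrier transthyretin, was at 4.08 against 25 CPM with pyrvinium and 13.2 against 36.0 CPM with DMSO.

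Several genes and lists were called differently in members of the 2 libraries. F3, tissue factor, was at 49.2 CPM in pyrvinium members against 54.0 CPM in the low-score cells (log2 -0.13), and at 141 CPM in DMSO members against 30.6 CPM (log2 2.20). Tff1, the surface mucous trefoil peptide, was at 421 CPM in pyrvinium members against 308 CPM (log2 0.45), and at 643 CPM in DMSO members against 183 CPM (log2 1.81). The surface mucous list, which holds Tff1 and Psca, did not rise as a whole. In pyrvinium members 2 of its 7 measured genes were higher and 3 lower (median log2 -0.51). In DMSO members 2 of 8 were higher and 3 lower (median -0.18). Gkn3 and Tff3 were lower in both. With members chosen by Cnfn alone the Tff1 ratio was 1.89 with pyrvinium and 1.93 with DMSO. By Ly6c1 alone it was -0.08 and 1.11. Over all genes 4.43% were higher and 10.7% lower in pyrvinium members, and 4.9% were higher and 5.72% lower in DMSO members. Of 17 hypoxia-induced genes 3 were higher and 1 lower in pyrvinium members, and 9 were higher and 0 lower in DMSO members. Egln3, an oxygen-sensing hydroxylase, was at 45.7 against 45.9 CPM with pyrvinium and 372 against 214 CPM with DMSO. Immediate-early genes were in part higher in pyrvinium members (4 higher and 0 lower of 17) and lower in DMSO members (0 higher and 8 lower of 20). Egr1, a growth factor-induced transcription factor of that list, was at 15.3 against 14.7 CPM with pyrvinium and 108 against 181 CPM with DMSO. With 1 library for each treatment these differences between libraries have no test.

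Cell cycle genes differed little with pyrvinium, where 2 of 38 S phase and 3 of 54 G2M genes were higher in members and 0 lower. With DMSO 0 were higher, and 10 of 38 S phase and 12 of 54 G2M genes were lower. The DMSO counts shrank to 4 S phase and 5 G2M genes under median-of-ratios scaling. Mki67, the proliferation antigen, was at 14.1 against 17.5 CPM with pyrvinium and 19.2 against 27.0 CPM with DMSO and was not called. By phase scores, 21.6% of pyrvinium members against 16.9% of the low-score cells, and 29.3% of DMSO members against 33.5%, were assigned to G2M. Free RNA enters such calls, and they are no measure of cycling on their own.

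Markers of endothelium and myeloid cells, in which Ly6c1 is well known, were few. Summed endothelial markers, mostly Cdh5 (VE-cadherin), were at 87.0 CPM in pyrvinium members against 92.4 CPM and 78.0 CPM in DMSO members against 72.4 CPM, with 4 of 14 at 0 in the members of each library and Gpihbp1, an endothelial gene of the Ly6 cluster, at 0. Immune and myeloid markers summed to 40.4 CPM in pyrvinium members against 25 CPM and 32.5 CPM in DMSO members against 19.9 CPM. This was mostly Cd68, a lysosomal protein that epithelia also express, and 8 and 9 of the 16 markers were at 0 in pyrvinium and DMSO members. Enteroendocrine markers summed to 1.42 CPM against 1.98 CPM with pyrvinium and 1.11 against 1.11 CPM with DMSO.

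Members with Cnfn only and members with Ly6c1 only differed from each other by many genes that had no part in the score. This comparison was added after the data had been seen. It sets 16 Cnfn only against 145 Ly6c1 only members with pyrvinium and 76 against 229 with DMSO. With pyrvinium 593 of 9745 genes were higher in Cnfn only members (6.09%) and 449 lower (4.61%). With DMSO 854 of 10508 genes were higher (8.13%) and 769 lower (7.32%). Of the 9489 genes measured in both libraries 165 were higher in both (28.3% of the pyrvinium and 21.8% of the DMSO calls) and 90 lower in both (20.1% and 12.2%). The 16 pyrvinium cells are few, and without the 3 of them with most Cnfn the counts were 458 higher and 295 lower.

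Fetal-like genes sat with Cnfn. In Cnfn only members 18 of 24 were higher and 1 lower with pyrvinium (median log2 1.16) and 15 of 24 were higher and 0 lower with DMSO (median 0.79). Krt19 was at 3032 CPM in Cnfn only against 692 CPM in Ly6c1 only members with pyrvinium, and at 5281 against 1991 CPM with DMSO. Krt19 was found in all 16 and all 76 Cnfn only members, with 23.4% and 7.83% of its counts in the richest cell. Ptgs2 was at 104 against 5.32 CPM with pyrvinium and 24.7 against 10.5 CPM with DMSO, but it was found in 7 of 16 pyrvinium cells, of which 1 held 57.7% of the counts. F3 was at 153 against 28.6 CPM with pyrvinium and 329 against 53.9 CPM with DMSO. It was found in 10 of 16 pyrvinium cells, with 52.6% of the counts in 1 of them, and in 53 of 76 DMSO cells, with 11.3% in the richest. Psca was at 632 against 151 CPM with pyrvinium and 441 against 149 CPM with DMSO. Ahnak, a large membrane scaffold, was at 329 against 54.4 CPM with pyrvinium and 210 against 64.8 CPM with DMSO. Sprr1a was at 171 against 18.4 CPM with pyrvinium and 133 against 25.2 CPM with DMSO, with 47.1% and 37.9% of the Cnfn only counts in 1 cell. Of the cornified and squamous genes 5 of 12 were higher and 0 lower in Cnfn only members with pyrvinium, and 5 of 14 higher and 0 lower with DMSO.

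Ly6a did not take a side: it was at 2679 CPM in Cnfn only against 2923 CPM in Ly6c1 only members with pyrvinium and at 2789 against 2741 CPM with DMSO, in each case above the low-score cells. With members chosen by Cnfn alone its ratio was log2 0.78 with pyrvinium and 0.81 with DMSO. The reference there was not the low-score cells but the cells lowest in Cnfn, drawn anew, which can hold Ly6c1 counts. The part of that change of reference in the smaller ratios was not tested. Ly6i and Ly6f were not called between these subsets in either library. Clu was not called either, at 1242 against 1501 CPM with pyrvinium and 2301 against 2457 CPM with DMSO.

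G2M genes were lower in Cnfn only members of both libraries, with 1 of 52 higher and 17 lower with pyrvinium (median log2 -0.65) and 0 of 53 higher and 22 lower with DMSO (median -0.66). S phase genes were lower with DMSO (0 of 37 higher, 13 lower) and not with pyrvinium (1 of 32 higher, 0 lower). Lgr5 was at 2.01 against 6.94 CPM with pyrvinium, not called, and at 5.88 against 20.9 CPM with DMSO. Hypoxia genes were higher in Cnfn only members with DMSO (10 of 17 higher, 0 lower) and uncalled with pyrvinium (0 of 16). Genes of the integrated stress response, which acts through ATF4, were lower in Cnfn only members with pyrvinium (1 of 28 higher, 9 lower). With DMSO they were higher (7 of 27 higher, 0 lower). Ddit3, the CHOP transcription factor of that response, was at 132 against 396 CPM with pyrvinium and 82.3 against 27.8 CPM with DMSO.

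**Figure D4:**
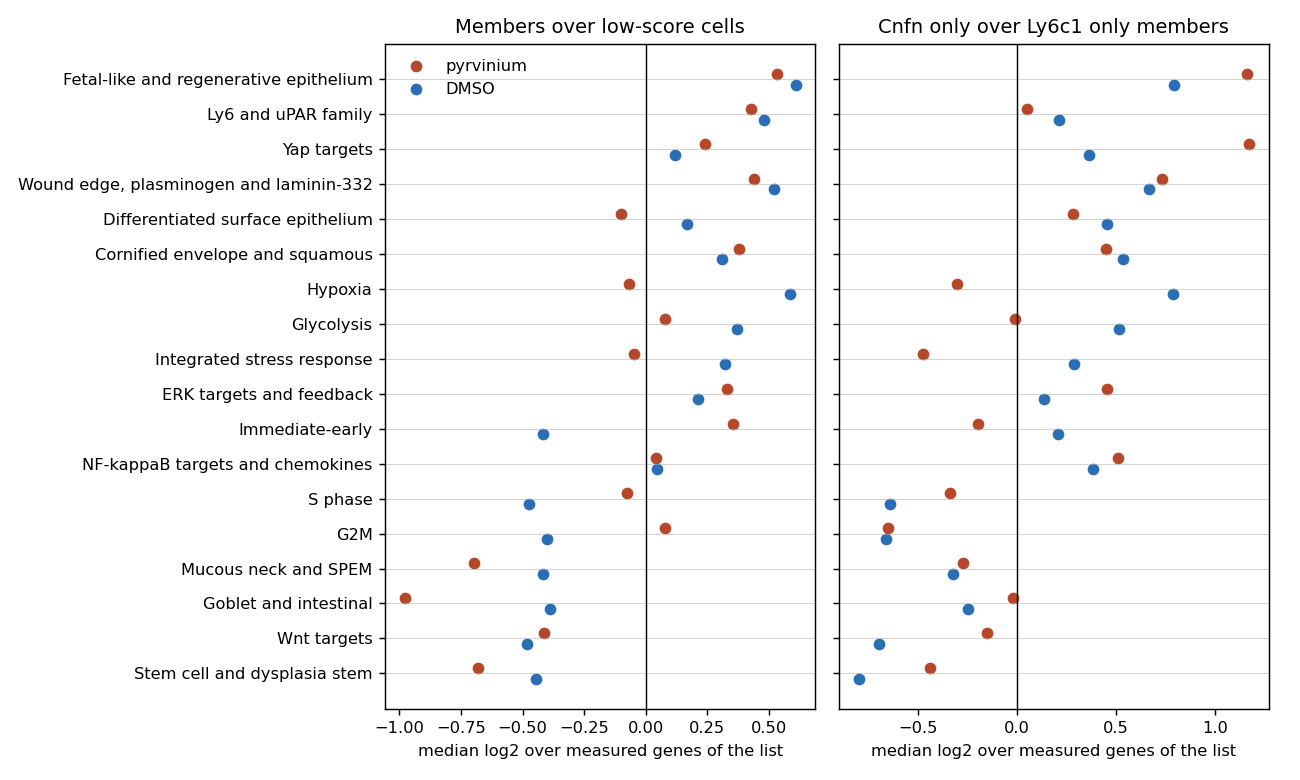
Median log2 ratio over the measured genes of 18 gene lists, for members over the low-score cells (left panel) and for Cnfn only over Ly6c1 only members (right panel), in pyrvinium (red) and DMSO (blue) cells. Fetal-like genes lie right of 0 in both panels and both libraries, at 0.53 and 0.61 on the left and 1.16 and 0.79 on the right, and G2M genes lie left of 0 in both libraries on the right panel.

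Pyrvinium members and DMSO members differed in stress, hypoxia and growth-related genes, and the same lists are given for the low-score cells beside them. In members 904 of 12558 genes were higher with pyrvinium (7.2%) and 2207 lower (17.6%), and in the low-score cells 853 of 11930 were higher (7.15%) and 1578 lower (13.2%). The median log2 ratio of all genes in members was -0.10, and median-of-ratios scaling gave 1036 higher and 1967 lower. Genes of the integrated stress response were higher in pyrvinium members (17 of 28 higher, 2 lower, median log2 0.84) and in pyrvinium low-score cells (23 of 27 higher, 1 lower, median 1.03). Ddit3 was at 340 CPM in pyrvinium members against 45.6 CPM in DMSO members (log2 2.90), and its ratio in the low-score cells was 2.95. Gdf15, a stress cytokine, was at 1001 CPM in pyrvinium members against 117 CPM in DMSO members (log2 3.10) and at 516 against 93.6 CPM in the low-score cells (log2 2.46). Trib3, a pseudokinase target of CHOP, was at 105 against 29.8 CPM in members (log2 1.81; 2.19 in the low-score cells). Hspa1a, an inducible heat shock chaperone with a near-identical copy, was at 49.7 against 8.43 CPM in members (log2 2.56; 1.33 in the low-score cells). Dusp4, a phosphatase that restrains ERK, was at 122 against 15.8 CPM in members (log2 2.95; 3.21 in the low-score cells).

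Hypoxia, glycolysis and immediate-early genes were lower with pyrvinium in members as in the low-score cells. In members 16 of 17 hypoxia genes, 15 of 17 glycolysis genes and 13 of 18 immediate-early genes were lower and 0 higher. In the low-score cells 14 of 17, 13 of 17 and 19 of 20 were lower, with 1 hypoxia gene higher. Bnip3, a mitophagy receptor, was at 41.4 CPM in pyrvinium members against 548 CPM in DMSO members (log2 -3.73; -2.60 in the low-score cells). Fos, an AP-1 subunit, was at 35.0 against 418 CPM (log2 -3.58; -3.73 in the low-score cells). Of 38 S phase genes 17 were lower and 0 higher in members, and 31 were lower and 0 higher in the low-score cells. Of 54 G2M genes 10 were lower and 2 higher in members, a share of lower genes near that of all genes, and 7 were lower under median-of-ratios scaling and 2 with members of at least 5 counts. In the low-score cells 40 of the 54 were lower and 1 higher. Of the stem cell genes 8 of 17 were lower in members and 9 of 17 in the low-score cells, and 0 were higher.

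The genes that describe the members moved unequally with treatment. Ly6a was not called, at log2 0.08 in members and 0.18 in the low-score cells. Krt19 was lower with pyrvinium, at log2 -1.60 in members and -1.07 in the low-score cells. Cornified and squamous genes were lower in 9 of 17 and higher in 0 in members, against 5 lower and 1 higher of 14 in the low-score cells. The lower genes of both groups include Sprr2a1, Sprr2a2, Sprr2a3 and Sprr2b. Sprr2a3 belongs to a set of near-identical copies, so these calls may not be separate. Sprr1a is also among the 9 in members, but its ratio there changed sign under some alternatives. It was log2 0.205 with each cell thinned and 0.033 among cells of the same range of counts. Ptgs2 and Areg were higher with pyrvinium in members (log2 1.13 and 1.31) and in the low-score cells (1.60 and 1.53). F3 was lower with pyrvinium in members (log2 -1.52, -1.67 to -1.38) and higher in the low-score cells (0.82, 0.58 to 1.06), and Tff1 was likewise lower in members (-0.61) and higher in the low-score cells (0.75). The 4 groups stand side by side for F3 at 49.2 CPM in pyrvinium members, 141 CPM in DMSO members, 54.0 CPM in pyrvinium low-score cells and 30.6 CPM in DMSO low-score cells. With members chosen by Cnfn alone the Tff1 ratio of pyrvinium over DMSO in members changed sign, to log2 0.20. The share of Cnfn only members was 16 of 213 with pyrvinium and 76 of 400 with DMSO, and its part in these differences was not tested.

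**Figure D5:**
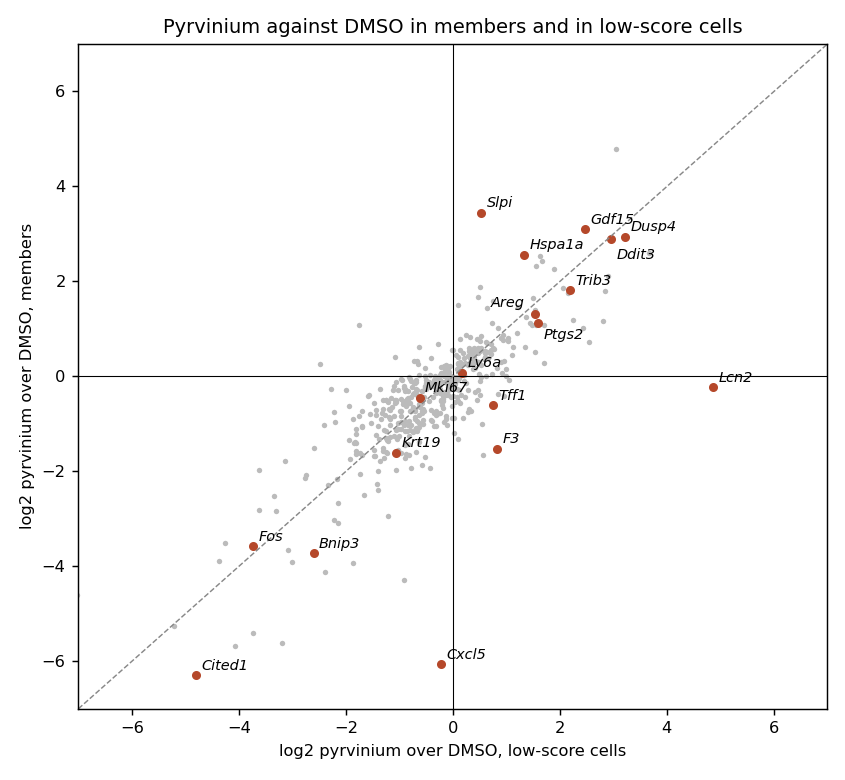
Log2 ratio of pyrvinium over DMSO in members (vertical axis) against the same in the low-score cells (horizontal axis), for the named and listed genes; the dashed line marks equal ratios and red points are labelled. Gdf15, Ddit3 and Dusp4 lie at the upper right, Fos and Bnip3 at the lower left, F3 and Tff1 below the horizontal line and right of the vertical one, and Lcn2 and Cxcl5, each carried largely by 1 cell in a DMSO group, far from the dashed line.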

How the data were processed

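The authors deposited 1 table of raw counts per library, with genes and cell barcodes, and counts are whole numbers per gene and barcode. Per the submitters' processing notes Partek was used with the GRCm39 build; what aligned and counted the reads, on which strand and annotation, is not given in the sources used here. Per the labels, each library is 1 culture treated for 1 day. Barcodes with at least 13100 counts (pyrvinium) or 9320 counts (DMSO) were kept as cells, 854 and 1602 of 353485 and 331629 barcodes, with a total of 37046673 and 39980497 counts; a limit of 500 genes and 20% mitochondrial counts removed 0. Free RNA was read from barcodes with 100 to 500 counts. Doublets were kept, because the caller of scanpy 1.11.5 marked too few cells to be usable; leaving out the 5% with the highest scores was an alternative.

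Members are the highest 25% of cells by summed Cnfn and Ly6c1 counts per 10000 counts, and ties at 0 among the low-score cells were taken in file order. Alternatives that chose members by Cnfn alone or Ly6c1 alone also drew the lowest 25% anew by that gene. Cells with counts of the other gene can therefore be in that reference. Cnfn alone gave 98 pyrvinium and 231 DMSO members, because only cells with a count were taken. Counts were summed over each group and ratios got exact conditional binomial 95% intervals, and levels exact Poisson ones. The members and the 34 gene lists were chosen with earlier results of these data known. Named genes are a fixed set, the 12 highest and 12 lowest of each contrast by the interval bound nearest 0 with at least 20 CPM, and up to 4 per list; genes of the Ly6 cluster, those called in opposite directions and others were named after their values were seen. The counting of calls was tested on simulated independent counts, the model that the intervals assume. Those counts lack the concentration in single cells seen here, so the test does not cover it. Python 3.11.15, numpy 2.4.6, scipy 1.17.1, pandas 2.3.3 and matplotlib 3.10.9 were used.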

Additional observations from a re-analysis of the deposited data

Results flagged for a closer look

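Of the named and listed genes, 6 were called in opposite directions between members and the low-score cells in the 2 libraries, and the difference between libraries was not tested. Lcn2, which encodes the iron-binding protein lipocalin 2, was at 4.37 CPM in pyrvinium members against 21.6 CPM in the low-score cells, and at 5.09 CPM in DMSO members against 0.743 CPM, with 78.2% of the DMSO member counts in 1 cell; its log2 ratio with pyrvinium minus that with DMSO was -4.97. Slpi, a secreted protease inhibitor, was at 47.5 against 12.2 CPM with pyrvinium and 4.35 against 8.42 CPM with DMSO, with 77.9% of the counts of DMSO low-score cells in 1 cell, and its difference was 2.91. Cxcl5, a neutrophil chemokine, was at 0.285 against 3.81 CPM with pyrvinium and 19.0 against 4.46 CPM with DMSO, with 54.6% of the DMSO member counts in 1 cell, and its difference was -5.62. Nusap1, a spindle protein, was at 27.2 against 18.1 CPM with pyrvinium and 17.7 against 28.0 CPM with DMSO, a difference of 1.25. Ckap2l, another spindle protein, was at 7.88 against 4.52 CPM with pyrvinium and 9.54 against 18.1 CPM with DMSO, a difference of 1.71. Itga2, a collagen-binding integrin, was at 5.13 against 7.91 CPM with pyrvinium and 6.85 against 4.09 CPM with DMSO, a difference of -1.36. The last 3 were spread over cells: in members the richest cell held 6.27% and 3.67% of Nusap1, 10.8% and 5.83% of Ckap2l, and 13.0% and 9.46% of Itga2 with pyrvinium and DMSO.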

How the results depend on the processing

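Of 136 recomputed counts of calls under 17 alternatives, 109 stayed within 1.5 times the main count. The others follow, members against the low-score cells unless stated. In the settings by Cnfn alone or Ly6c1 alone the reference was drawn anew by that gene. With pyrvinium, members by Cnfn alone had 652 lower genes. With DMSO, members by Ly6c1 alone had 285 higher and 447 lower, the top against the bottom 10% of cells 1426 lower, median-of-ratios scaling 413 lower, and members with at least 5 counts 1275 lower. With each cell thinned to 5000 counts there were 145 higher and 258 lower with pyrvinium, 342 and 326 with DMSO, and, pyrvinium against DMSO, 380 and 730 in members and 520 and 777 in the low-score cells; fewer counts leave fewer genes to call. Scoring and summing on separate sets of counts gave 347 higher with pyrvinium and 379 higher and 453 lower with DMSO. Cells of the same range of counts gave 293 higher and 526 lower with pyrvinium. A 2-fold limit gave 245 and 434 with pyrvinium, 284 and 219 with DMSO, and, pyrvinium against DMSO, 356 and 1128 in members and 331 and 707 in the low-score cells. Cnfn only against Ly6c1 only members with pyrvinium had 816 lower genes with all Cnfn-positive members and 295 without the 3 richest in Cnfn; these alternatives, like the 5-count one, were chosen after seeing the data.

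There were 16 ratios that changed sign. Sprr1a in DMSO members was -0.45 by Ly6c1 alone, -0.37 in the top against the bottom 10% of cells and -0.21 thinned; pyrvinium against DMSO it was 0.35 with 10%, 0.21 thinned, 0.033 in the same range of counts and 0.15 with at least 5 counts. Lcn2 in DMSO members was -0.67 with 10% and -0.20 with at least 5 counts. Pyrvinium against DMSO in members, Krt20 was -1.35 with 10%, -0.23 thinned and -0.60 with at least 5 counts, Ereg -0.44 with 10% and -0.60 thinned, and Tff1 0.20 by Cnfn alone. Id3 in pyrvinium members was -0.011 thinned. Where not shown by construction, the cause was not tested. Ly6a stayed between 0.78 and 1.54 with pyrvinium and 0.81 and 1.70 with DMSO under 14 alternatives. No paired analysis was possible because each treatment has 1 library.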
